A study of Mus musculus with 4 samples.

Results

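Sox2, Sox4, Sox9, Sox21, Gata3, Pitx1 and Trp63 are 7 transcription factor genes of the crypt, the foregut or stratified epithelia, picked by name from the 25289 gene columns of the deposited tables. They were chosen with their levels in these libraries known, so their own values are given as a description and without p-values. SOX factors bend DNA through an HMG box and set the identity of progenitor cells. In the intestine, SOX9 marks crypt base and Paneth cells and SOX4 marks early progenitors of secretory cells, while SOX2 is a foregut factor that the normal intestinal epithelium lacks and SOX21 is its relative in the SOXB group. GATA3 acts in T cells, skin and mammary epithelium, PITX1 in hindlimb and oral ectoderm, and p63, the product of Trp63, in the basal cells of stratified epithelia.

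The libraries hold single-cell RNA counts from adult C57BL/6J mice, made with inDrop v2 from small-intestinal cells sorted as positive for EpCAM and negative for CD45, TER119 and the viability dye DAPI. Lats-deleted libraries 1 and 2 came from Lrig1-CreERT2 Lats1fl/fl Lats2fl/fl mice, in which tamoxifen-activated Cre acts where the stem and progenitor cell gene Lrig1 is expressed, and control libraries 1 and 2 from Lats1fl/fl Lats2fl/fl mice without Cre. All mice, controls included, were given tamoxifen (2 mg, intraperitoneal), and tissue was harvested on day 7. LATS1 and LATS2 are the Hippo kinases that keep the coactivators YAP and TAZ away from their DNA-binding partners, the TEAD factors, and the contrast sets Lats-deleted against control epithelium.

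Cells are barcodes of 1000 or more counts and 300 or more genes with no more than 30% of counts from mitochondrial genes. There were 726 and 1289 Lats-deleted and 774 and 515 control cells of this kind. Their summed counts were 3562565 and 5826856 in the Lats-deleted libraries, against 1603796 and 1228504 in the control libraries, with a median depth per cell of 3715.5 and 3848, against 1708 and 1995. Barcode sequences shared between pairs of libraries numbered 4 to 12. Enterocyte-like cells, named from absorptive genes, were 38 and 21 of the Lats-deleted cells and 620 and 397 of the control cells, so a sum over all cells also moves with the make-up of the library; in such a sum, fewer cells of a type and less RNA per cell cannot be told apart. Levels are given as CPM, the counts of a gene scaled to a common total for every library. Lats-deleted library 2 stood apart, since 11 stomach marker genes summed to 10460.2 CPM there, against 157 in Lats-deleted library 1 and 98.5 and 42.3 in the control libraries. Its 313 gastric-like cells had no counterpart in the other libraries, so values are given per library. Lats1 was at 6.93 and 9.26 CPM after Lats deletion and at 23.4 and 35.2 CPM in controls, and Lats2 at 27.2 and 20.1 against 9.20 and 10.5 CPM. The labels do not name the deleted exons, so these levels do not check the deletion. Xist was at 640.0 and 505 CPM after Lats deletion and at 9.35 and 6.51 CPM in controls, so sex and genotype cannot be told apart.

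The promoters shown are those of the genes higher in both Lats-deleted libraries for which RefSeq sequence on GRCm38.p6 was at hand, from 250 bases before to 50 after the start, with the TEAD motif in capitals. The letters searched for TEAD were GGAATG and, for the opposite strand, CATTCC.
Sox4 promoter (chr13:28953650-28953949, minus strand): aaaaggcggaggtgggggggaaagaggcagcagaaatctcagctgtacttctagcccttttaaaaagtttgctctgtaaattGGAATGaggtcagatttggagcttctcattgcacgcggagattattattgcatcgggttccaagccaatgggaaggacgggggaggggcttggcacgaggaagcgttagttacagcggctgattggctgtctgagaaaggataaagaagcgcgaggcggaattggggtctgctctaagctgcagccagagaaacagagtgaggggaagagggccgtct
Sox21 promoter (chr14:118236981-118237280, minus strand): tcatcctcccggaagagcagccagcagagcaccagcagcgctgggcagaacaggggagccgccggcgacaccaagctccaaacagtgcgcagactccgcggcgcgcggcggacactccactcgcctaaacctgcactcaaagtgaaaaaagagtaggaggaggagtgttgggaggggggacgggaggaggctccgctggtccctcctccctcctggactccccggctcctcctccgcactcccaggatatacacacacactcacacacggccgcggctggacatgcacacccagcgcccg
Gata3 promoter (chr2:9878551-9878850, minus strand): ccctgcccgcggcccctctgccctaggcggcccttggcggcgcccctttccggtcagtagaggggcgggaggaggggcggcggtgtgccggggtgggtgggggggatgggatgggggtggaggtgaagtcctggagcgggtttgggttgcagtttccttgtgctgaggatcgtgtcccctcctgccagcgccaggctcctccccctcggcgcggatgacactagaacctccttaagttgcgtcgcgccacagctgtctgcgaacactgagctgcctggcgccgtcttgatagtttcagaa
Sox4 has 1 TEAD match, while these promoters of Sox21, Gata3 and Sox2 have none; 14.7% of all 32851 promoters of the same length hold one. The SOX letters AACAAT occur in none of these 4 promoters on either strand and in 10.7% of all promoters. The letters AGATAA, which GATA factors bind, also occur in none of the 4 and in 11.2% of all promoters. A match is a run of letters and not a measured site.

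Across all kept cells, Sox4, Sox21, Gata3 and Pitx1 were higher in both Lats-deleted libraries than in both control libraries, Sox9 and Trp63 differed less than the other 4, and Sox2 was high in 1 Lats-deleted library. Of the 7 genes, 6 passed edgeR's filter on low counts and 4 of those passed an adjusted p of 0.05, all higher; among all 12561 genes tested, 15.3% were called higher and 30.8% in either direction. Since the genes were picked on this contrast, nothing is read from that count. Without either control library, which leaves 1 control, Sox4 alone among them kept its call.

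**Figure D1:**
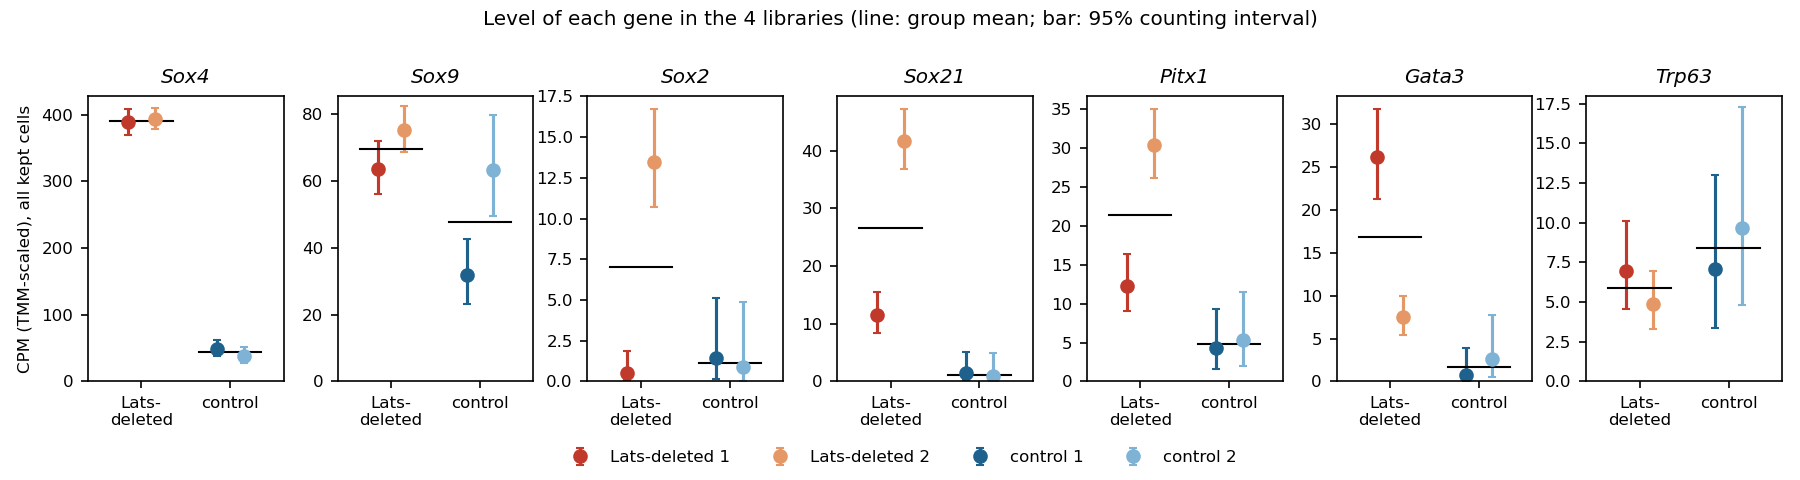
Level of each gene in CPM (vertical axis, linear, TMM-scaled, all kept cells) in the 2 Lats-deleted libraries (left) and the 2 control libraries (right), with a 95% counting interval for each library and a line at the group mean. Sox4 stands at 389 and 394 CPM after Lats deletion and at 48.8 and 38.7 CPM in the controls, while Sox2 is high in Lats-deleted library 2 alone.

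Sox4, a single-exon SOXC gene (ENSMUSG00000076431.4, chr13:28948919-28953713 on GRCm38, minus strand), was at 389 and 394 CPM after Lats deletion and at 48.8 and 38.7 CPM in controls. The groups lay far apart, and the Lats-deleted libraries were close to each other. Its mean was 391 ± 3.46 CPM after deletion and 43.8 ± 7.20 CPM in controls (SD, n = 2 each). The log2 fold change was 3.15 (SE 0.24). With each cell thinned to 1000 counts, 25.9% and 25.8% of Lats-deleted cells and 2.20% and 2.91% of control cells had a count of Sox4; unthinned, the shares were 45.7% and 50.6% against 4.01% and 5.44%. In enterocyte-like cells, which should hold little Sox4, the thinned shares were 0% of 38 and 0% of 21 Lats-deleted cells and 0.806% of 620 and 0.252% of 397 control cells. The median depth of those enterocyte-like cells was 2402.5 and 1893 counts in the Lats-deleted libraries and 1656.5 and 1942 in the control libraries. Sox4 counts were spread over many Lats-deleted cells, where the 3 cells richest in Sox4 held 8.18% and 3.47% of its counts, against 36.2% and 25.0% in the control libraries.

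Orders of levels by state are over clusters with at least 20 cells in a library. Clusters were formed without the 7 genes and carry a name ending in -like only where marker lists allowed it. Among clusters of that size, Sox4 was highest in cluster 7 in both Lats-deleted libraries, an unnamed cluster led by Wfdc18, Duox2 and Gpx2, at 1320.4 CPM (95% Poisson interval 1219 to 1428) and 1023 CPM (919 to 1136). This cluster held 13.3% of all counts and 41.4% of Sox4 counts in Lats-deleted library 1, and 5.89% and 14.5% in Lats-deleted library 2. Next in library 1 came the cycling cluster 9 at 409 CPM, the stromal-like cluster 11 at 394 and cluster 2, led by Cdkn2a and Ly6c1, at 332, whose counting intervals overlap. Regenerative-like cells (cluster 1, led by Plat, Tgfb2 and Ankrd1) were at 251 and 257 CPM. In library 2, the cycling cluster 3 was at 580.4 CPM, cluster 2 at 402, the Pgc and Muc6 gastric-like cluster 13 at 381 and the Tff1 and Gkn2 gastric-like cluster 5 at 189.6.

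The smaller enteroendocrine-like cluster 16, with 3 and 13 Lats-deleted and 4 and 7 control cells, held more of the Sox4 counts than of all counts in every library. Its shares of Sox4 counts were 1.12% and 4.17% in the Lats-deleted libraries and 7.25% and 6.82% in the controls, and its shares of all counts 0.237% and 0.865% against 0.415% and 1.012%.

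Among control states with at least 20 cells in a library, Sox4 was highest in the stem-like class, at 228 and 178 CPM, and low in goblet-like cells at 7.90 and 56.6 CPM and in enterocyte-like cells at 12.5 and 3.27 CPM. The remaining Lats-deleted enterocyte-like cells held 0 and 1 count, which allows up to 31.4 CPM in library 1. The counting interval of Lats-deleted regenerative-like cells overlaps that of control stem-like cells, and cluster 7 lay above both. Stromal markers such as Dcn, which an EpCAM gate should leave out, summed to 1448 and 200 CPM after Lats deletion and to 56.1 and 45.6 in controls. Without the stromal-like cells the log2 fold change of Sox4 over all kept cells was 3.19.

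**Figure D2:**
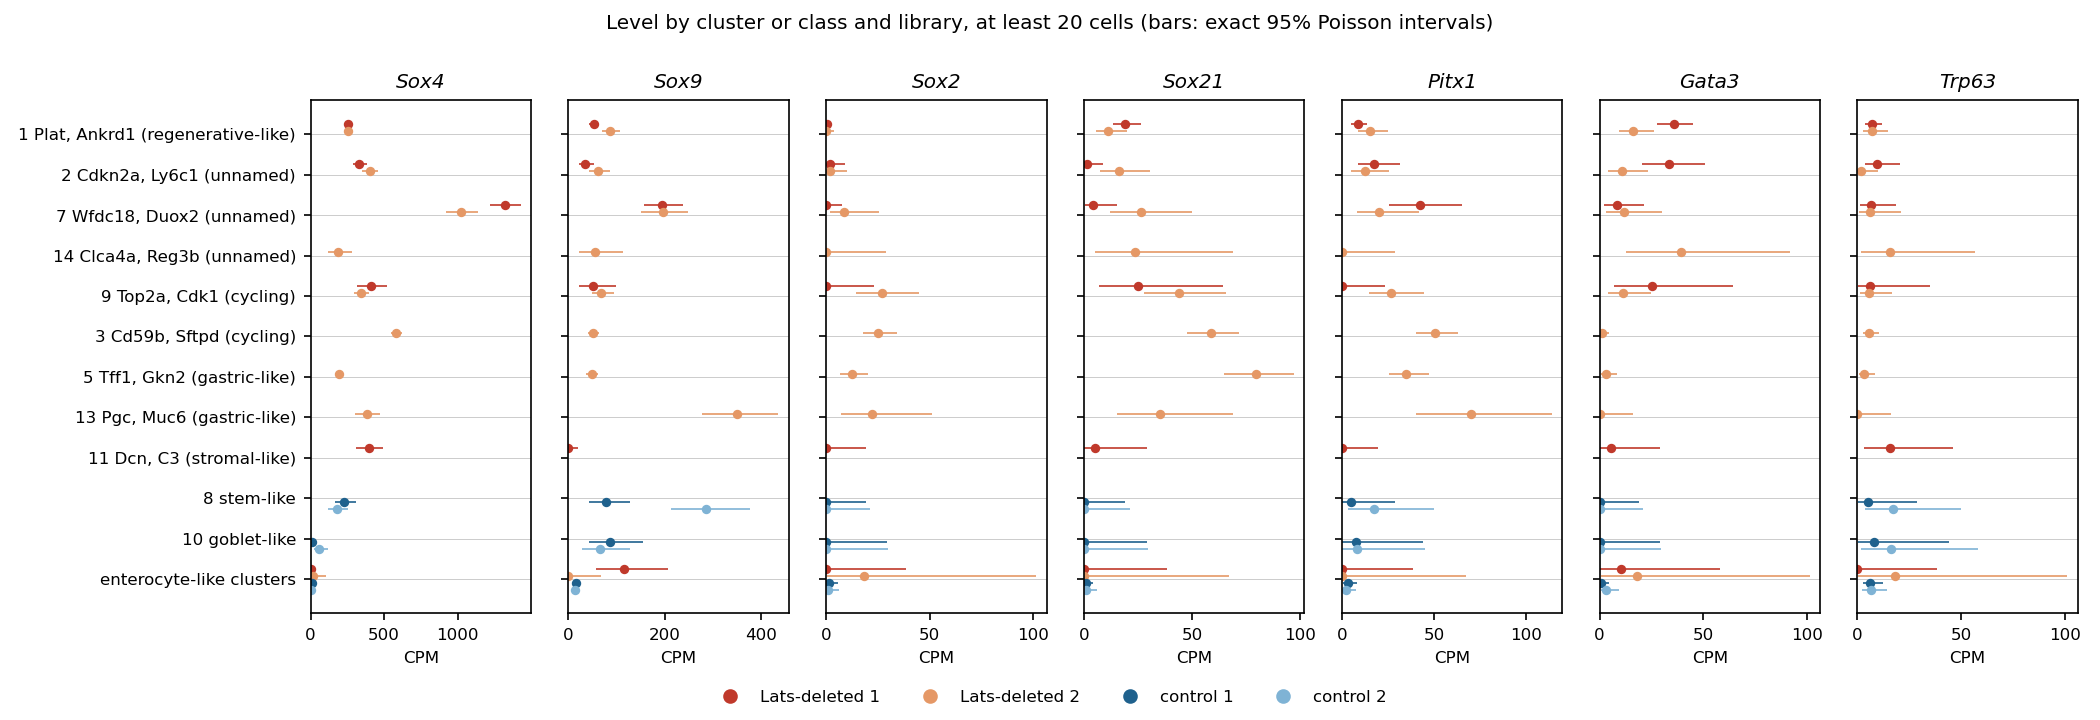
CPM of each gene (horizontal axes, linear, by plain totals) in clusters and classes with at least 20 cells, by library, with exact 95% Poisson intervals. Sox4 peaks in cluster 7 of both Lats-deleted libraries, and Sox21, Sox2 and Pitx1 in cycling and gastric-like clusters of Lats-deleted library 2. Among Lats-deleted clusters Sox9 is highest in cluster 13 and cluster 7, while control stem-like cells stand at 77.9 and 286 CPM of Sox9.

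Comparing progenitor-like cells alone, stem-like and cycling, narrowed the difference in Sox4: it was at 480 and 620.2 CPM after Lats deletion and at 303 and 218 CPM in controls. The groups did not overlap, and the log2 fold change was 1.09 (SE 0.29). In this comparison 896 of 3636 genes tested were called, 12.4% of the tested genes higher, 12.2% lower and 24.6% in either direction. Of the 7 genes only Sox4 and Sox9 had enough counts to be tested there, and Sox4 was called higher. That call did not hold with DESeq2, with a replicate block, with clusters at the finer resolution, or without control library 1 or 2. In these settings the log2 fold change lay between 0.83 and 1.34. The classes differ in make-up between the groups, since the Lats-deleted progenitor-like cells were mostly of cycling clusters (32 of 35 and 477 of 485) and the control ones of the stem-like cluster (93 of 94 and 72 of 72). They also differ in the stomach claudin Cldn18. Only 125 of the 485 cells of Lats-deleted library 2 had no count of it, against 35 of 35 in library 1. In controls these were 93 of 94 and 71 of 72. The progenitor-like values of library 2 are thus mostly of Cldn18-positive cells.

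Sox9 (ENSMUSG00000000567.5, chr11:112782224-112787760, plus strand, 3 exons), which keeps crypt progenitors and is needed for Paneth cells, was at 63.6 and 75.4 CPM after Lats deletion and at 31.9 and 63.3 CPM in controls. Control library 2 was almost level with Lats-deleted library 1, and control library 1 was lower than the other 3 libraries. The mean was 69.5 ± 8.30 CPM after deletion and 47.6 ± 22.2 CPM in controls (SD, n = 2 each), with a log2 fold change of 0.56 (SE 0.33) that was not called and was 1.15 without control library 2. Within progenitor-like cells the order was the other way round: Sox9 was at 73.3 and 71.3 CPM after Lats deletion and at 96.7 and 351 CPM in controls. The log2 fold change there was -1.62 (SE 0.55) and was not called. It was -0.44 without control library 2 and -2.28 without control library 1, where it was called lower; it was also called lower with no filter on low counts, at the finer cluster resolution, without Lats-deleted library 2 and without Cldn18-positive cells.

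**Figure D3:**
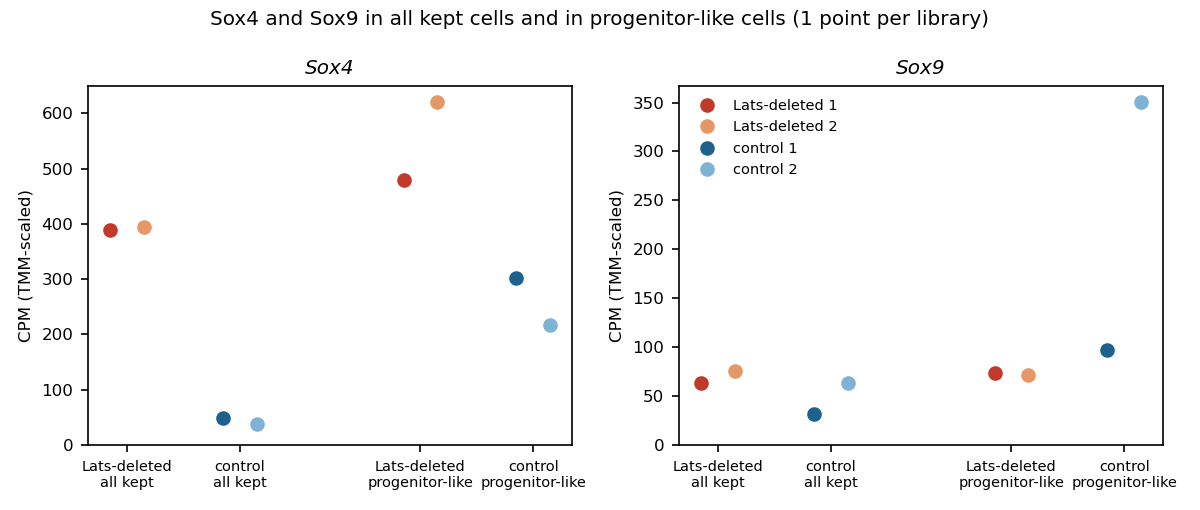
CPM of Sox4 and Sox9 (vertical axes, linear, TMM-scaled) with 1 point per library, in all kept cells and in progenitor-like cells, Lats-deleted left of control. Sox4 is higher in the Lats-deleted libraries in both sets of cells, whereas Sox9 in progenitor-like cells is lower, at 73.3 and 71.3 CPM against 96.7 and 351 CPM.

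Among Lats-deleted clusters with at least 20 cells in a library, Sox9 was highest in the gastric-like cluster 13 of Lats-deleted library 2, at 350.2 CPM (interval 278 to 436), which held 17.2% of the library's Sox9 counts on 3.92% of all its counts. Cluster 7 was next among these, with 194 CPM in Lats-deleted library 1 and 195 CPM in Lats-deleted library 2. Regenerative-like cells had 52.1 and 86.4 CPM. Control stem-like cells were at 77.9 and 286 CPM, goblet-like cells, whose cluster also holds Paneth defensins, at 86.9 and 64.6 CPM, and enterocyte-like cells at 14.9 and 13.1 CPM. Unlike Sox4, Sox9 had 0 counts in the 72 stromal-like cells of Lats-deleted library 1, which allows up to 15.8 CPM. The 38 enterocyte-like cells of that library had 11 Sox9 counts, or 115 CPM, and the 21 of Lats-deleted library 2 had none.

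A count of Sox4 was seen in a larger share of cells with Sox9 than of cells without it. With cells thinned to 2000 counts, 56.4% of the 55 Sox9-positive cells of Lats-deleted library 1 had a count of Sox4, against 35.6% of its other cells, and 52.7% of 112 against 37.4% in Lats-deleted library 2. For Sox21, 55.6% of 9 Sox21-positive cells and 37.4% of the others had Sox4 in library 1, and 39.0% of 77 and 39.1% of the others in library 2. These shares describe cells of 1 library each and were not tested.

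Sox21 (ENSMUSG00000061517.8, chr14:118233232-118237030, minus strand, 1 exon), a SOXB2 repressor of the foregut and skin, was at 11.5 and 41.7 CPM after Lats deletion and at 1.42 and 0.879 CPM in controls. The counts behind these levels were 45 and 257, against 2 and 1. Lats-deleted library 2 was the highest and the groups did not overlap; the ratio of the summed levels was 25.5 (95% counting interval 8.65 to 125). The fitted log2 fold change was 4.48 (SE 0.95), and 3.22 without Lats-deleted library 2. In library 1, regenerative-like cells held 80.0% of Sox21 counts and 52.8% of all counts, at 19.2 CPM, and the 27 cells of the cycling cluster 9 were at 25.1 CPM with an overlapping interval. In library 2, regenerative-like cells were at 11.2 CPM, the gastric-like cluster 5 at 79.7 and the cycling cluster 3 at 58.7. The 93 and 72 control stem-like cells had no Sox21 count, which allows up to 15.6 and 17.2 CPM. Among progenitor-like cells, Sox21 was at 26.6 and 64.8 CPM after Lats deletion, from 4 and 119 counts, and had no count in the control libraries. The mean of the Lats-deleted libraries was at least 4.54-fold higher against the floor of 3 counts over the control group. That mean leans on Lats-deleted library 2, and the bound does not hold for Lats-deleted library 1 alone.

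Sox2 (ENSMUSG00000074637.7, chr3:34650405-34652461, plus strand, 1 exon), the factor that sets foregut against hindgut identity, had 2 and 83 counts in the Lats-deleted libraries and 2 and 1 in the control libraries. That was 0.513 and 13.5 CPM after deletion and 1.42 and 0.879 CPM in controls. Lats-deleted library 1 was no higher than the controls, so the groups overlapped, and Sox2 did not pass the filter on low counts; the ratio of summed levels was 7.19 (interval 2.38 to 35.5). In library 2 its counts lay mostly in the cycling clusters 9 and 3, at 26.7 and 25.0 CPM, and in the gastric-like clusters 13 and 5, at 21.9 and 12.2 CPM. The counting intervals of these clusters all overlap. In progenitor-like cells Sox2 had 0 and 55 counts after deletion and 0 and 0 in controls. The 153 regenerative-like cells of that library had none, which allows up to 3.05 CPM. Sox2 lies within Sox2ot on the same strand, so counts of the pair may not be told apart. The same holds for same-strand genes that overlap Gata3, Pitx1 and Trp63. It may also hold for opposite-strand genes that overlap Sox4, Sox21, Gata3, Pitx1 and Trp63, since the strand used in counting is not given.

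Pitx1 (ENSMUSG00000021506.7, chr13:55825051-55836192, minus strand, 3 exons) was at 12.3 and 30.4 CPM after Lats deletion and at 4.25 and 5.27 CPM in controls, from 48 and 187 counts against 6 and 6. Lats-deleted library 2 was again the highest and the groups did not overlap. The log2 fold change was 2.18 (SE 0.58), and 1.36 without Lats-deleted library 2. In library 1, among clusters of at least 20 cells, cluster 7 led at 42.1 CPM (interval 25.7 to 65.0) with 41.7% of the counts. In library 2 the order was cluster 13 at 70.0 CPM, cluster 3 at 50.7 and cluster 5 at 34.98, with overlapping intervals between neighbours, and cluster 7 was at 20.4 CPM. In progenitor-like cells, too few to pass the filter, Pitx1 was at 6.66 and 52.8 CPM after Lats deletion and at 6.45 and 21.1 CPM in controls, so the groups overlapped.

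Sox2, Sox21 and Pitx1 were higher in the cells of Lats-deleted library 2 that carried the stomach claudin Cldn18. Among the 733 cells with a Cldn18 count and the 556 without, Sox2 was at 21.3 and 3.46 CPM, Sox21 at 61.4 and 17.7 CPM, and Pitx1 at 42.4 and 16.4 CPM. For Gata3 the order was the reverse, at 4.55 and 12.98 CPM, and Sox4 was at 388 and 458 CPM. This split was chosen after the data were seen. With Cldn18-positive cells left out of all libraries, the log2 fold changes of Sox21 and Pitx1 were 3.48 and 1.48, against 4.48 and 2.18 with them. The part of stomach-marker cells in these levels was not tested beyond that.

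**Figure D4:**
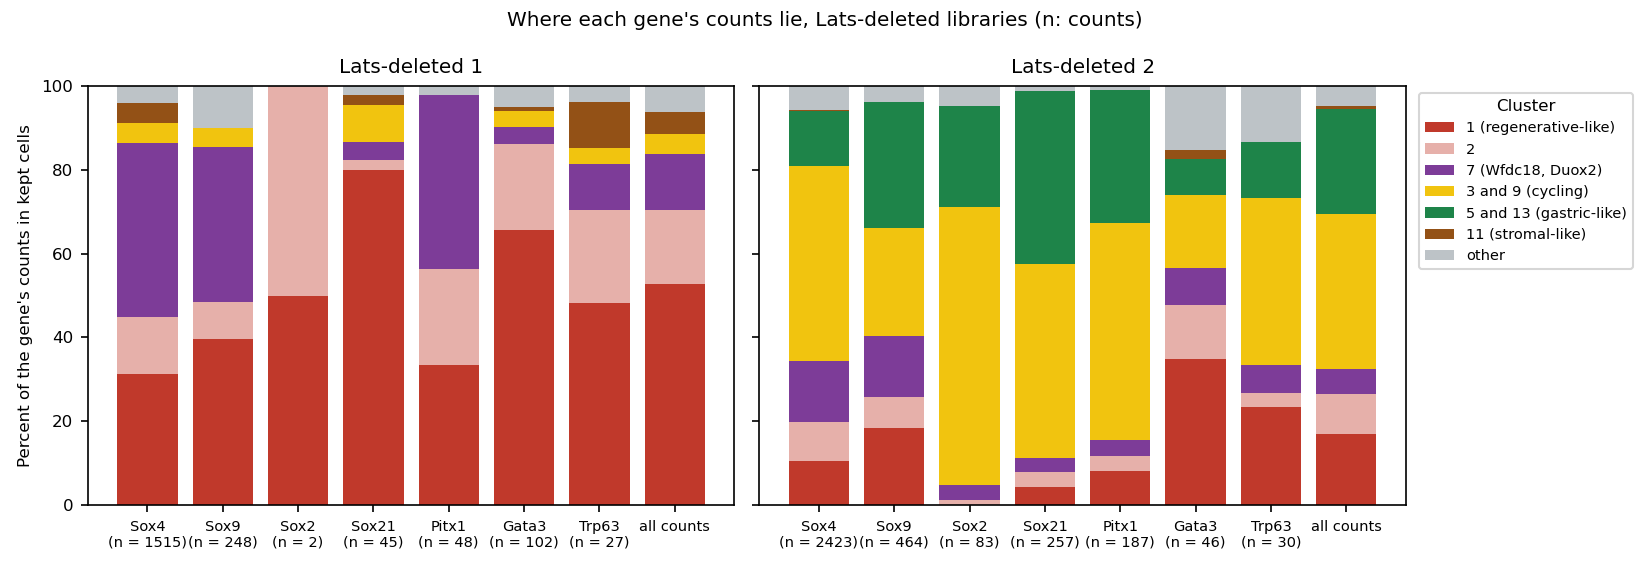
Percent of each gene's counts (vertical axis) that lie in each cluster group in Lats-deleted libraries 1 and 2, beside the percent of all counts in the last bar, with the number of counts under each gene. Cluster 7 holds 41.4% of Sox4 counts in library 1, and cycling and gastric-like clusters hold most Sox2, Sox21 and Pitx1 counts in library 2.

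Gata3 (ENSMUSG00000015619.10, chr2:9857078-9890034, minus strand) ran the other way between the Lats-deleted libraries: it was at 26.2 and 7.47 CPM in libraries 1 and 2, against 0.708 and 2.64 CPM in controls, from 102 and 46 counts against 1 and 3. Lats-deleted library 1 was the highest and the groups did not overlap. The ratio of summed levels was 9.38 (interval 3.59 to 34.9), and the fitted log2 fold change was 3.35 (SE 0.95), which was 2.21 without Lats-deleted library 1 and 4.50 without control library 2. Regenerative-like cells held 65.7% and 34.8% of Gata3 counts, at 35.7 and 16.3 CPM, and cluster 2 was at 33.4 and 10.7 CPM. Cluster 14, an unnamed cluster led by Clca4a, had 17 and 26 cells in Lats-deleted libraries 1 and 2. It held 3.92% and 10.9% of Gata3 counts on 2.82% and 2.18% of all counts. In the cycling cluster 3 of library 2, with 374 cells, it was at 1.22 CPM. Progenitor-like cells had 4 and 8 Gata3 counts after deletion and 0 and 0 in controls. GATA3 is also a T cell factor. Of the Gata3-positive cells, 21.8% of 78 and 21.6% of 37 in the Lats-deleted libraries had a count of Ptprc, Cd3d, Cd3e, Cd3g, Thy1 or Il7r, against 12.96% and 9.74% of the other cells, with cells not thinned and CD45-positive cells sorted out. In Lats-deleted library 1 the share was also 20.3% of Sox9-positive and 20.5% of Pitx1-positive cells and 5 of 25 Trp63-positive cells. In library 2 it was 10.9% of Sox9-positive and 12.2% of Pitx1-positive cells and 3 of 30 Trp63-positive cells. The leukocyte list of 16 genes summed to 65.7 and 62.6 CPM after Lats deletion and to 465 and 718 CPM in controls. Of these genes, 2 and 1 were at 0 in the Lats-deleted libraries and 4 and 5 in the control libraries. The list includes Cd74, a leading gene of an enterocyte-like cluster at resolution 2, so its sum does not count leukocytes alone. The part of leukocytes in Gata3 was not tested.

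Trp63 (ENSMUSG00000022510.14, chr16:25683763-25892102, plus strand) was low throughout, at 6.93 and 4.87 CPM after Lats deletion and at 7.08 and 9.67 CPM in controls. Both Lats-deleted values were below both control values, by little for library 1, and the log2 fold change was -0.51 (SE 0.42), which was not called. No cell of the control libraries had more than 1 count and none of the Lats-deleted libraries more than 2. By state, regenerative-like cells were at 6.92 and 7.12 CPM after Lats deletion, and control stem-like cells at 5.19 and 17.2 CPM. The counting intervals of these classes overlap. In progenitor-like cells Trp63 had 1 and 12 counts after deletion and 1 and 3 in controls. Thinned shares of cells with a Trp63 count were 0.826% and 0.543% after deletion and 0.904% and 1.17% in controls, or 3.44% and 2.33% against 1.29% and 2.14% unthinned. The thinned share in control enterocyte-like cells, which should lack p63, was 0.968% and 1.008%.

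Genes with levels most like these over the 22 combinations of library and cluster with at least 30 cells were named by Pearson's r of log2(CPM + 10), among 6580 genes. Such points share libraries and depth, and r is given as a description. Sox4 was most like Cd44 (r = 0.93), a hyaluronan receptor, then Ncbp2, Eif4a1, Rtn4 and Tubb5. For Sox9 the list was Cd24a (r = 0.88), Ehf, Prom1, Bzw2 and Alyref2. Sox21 was nearest to Sftpd (r = 0.95), Cldn18, Slc45a3, Muc1 and Dpcr1, where Muc1 encodes a membrane mucin, and Pitx1 to Mthfd1l (r = 0.88), Foxk2, Samd5, Tubg1 and Foxa1. Among Sox4, Sox9, Sox21 and Pitx1, r was highest for Sox9 with Pitx1, at 0.75, and lowest for Sox9 with Sox21, at 0.35. Sox2, Gata3 and Trp63 had under 200 counts in all and were not compared.

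Of 15 other Sox genes, 6 were tested and 0 were called by edgeR or by DESeq2, while 1 and 0 had an unadjusted p under 0.05, with a median log2 fold change of 0.31 against 0.05 over all genes tested; the median was -0.41 without stromal-like cells and -0.28, with 1 gene called higher, without Cldn18-positive cells. Without Lats-deleted library 1 it was -1.09 over the 3 genes still tested, 2 of them called lower, and without Lats-deleted library 2 it was 0.66 with 1 called higher. Sox12, the SOXC relative of Sox4 and Sox11, was at 7.95 and 4.71 CPM after deletion and at 2.12 and 2.64 CPM in controls (log2 fold change 1.38, SE 0.57, edgeR adjusted p = 0.113). Sox17, the endoderm factor, had a log2 fold change of 1.26 (edgeR adjusted p = 0.157), Sox11 one of 1.097 (edgeR adjusted p = 0.195) and Sox5 one of -0.83 (edgeR adjusted p = 0.133), and for each both Lats-deleted libraries lay on the same side of both controls. Of 6 tested genes of the Gata, Pitx and p53 families, 1 rose and 2 fell, beside 30.8% called in either direction among all genes tested. Gata4, an endoderm factor of the proximal intestine, fell to 60.3 and 67.2 CPM after Lats deletion, against 137 and 117 CPM in controls (log2 fold change -0.995, SE 0.205, edgeR adjusted p = 0.0119). Gata6, which acts with it, fell to 77.5 and 57.7 CPM, against 135 and 127 CPM (log2 fold change -0.95, edgeR adjusted p = 0.0200). Trp53 rose to 61.8 and 95.5 CPM, against 28.3 and 43.1 CPM (log2 fold change 1.15, edgeR adjusted p = 0.0341), and Gata5 was at 20.5 and 14.5 against 25.5 and 30.8 CPM (edgeR adjusted p = 0.136). The calls of Gata4, Gata6 and Trp53 were lost without either control library, those of Gata4 and Gata6 also with DESeq2, that of Gata6 also with plain totals and with no filter, and that of Trp53 also at a maximum of 15% mitochondrial counts. Over 14 alternatives they had edgeR or DESeq2 adjusted p of up to 0.172, 0.191 and 0.253.

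Among 9 tested foregut transcription factors, Foxa1 and Foxa2 rose and Nkx2-1 fell, beside 30.8% called in either direction among all genes tested. The median was -0.09, or 0.16 with plain library totals. Without Lats-deleted library 2 the median was -0.74, with 2 called higher and 4 lower, and without Cldn18-positive cells it was -0.56. Foxa2, a pioneer factor of endoderm, rose to 64.9 and 61.2 CPM after Lats deletion, against 4.96 and 7.91 CPM in controls (log2 fold change 3.31, SE 0.313, edgeR adjusted p = 0.000585). Foxa1 rose to 41.6 and 95.7 CPM, against 14.2 and 7.91 CPM (log2 fold change 2.61, edgeR adjusted p = 0.00952). Nkx2-1 was at 3.08 and 3.74 against 8.50 and 17.6 CPM (log2 fold change -1.88, edgeR adjusted p = 0.0242), and the calls of both Foxa1 and Nkx2-1 were lost without either control library, and that of Nkx2-1 also with DESeq2, with edgeR or DESeq2 adjusted p of up to 0.101 and 0.225 over the alternatives. Isl1 was not called (log2 fold change -1.14, edgeR adjusted p = 0.133).

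Genes of basal and squamous epithelium, tissues where p63 and GATA3 act, mostly rose: 12 of 19 tested rose and 1 fell. Among all genes tested 15.3% were called higher and 15.5% lower. The list's median log2 fold change was 1.45. Lamb3, a laminin chain of epithelial basement membranes, rose to 241 and 262 CPM after Lats deletion, against 39.6 and 25.5 CPM in controls (log2 fold change 2.94, edgeR adjusted p = 0.000565). Lama3, another laminin chain, rose to 136 and 107 CPM, against 12.7 and 1.76 CPM (log2 fold change 3.98, edgeR adjusted p = 0.00243). Sprr1a, a cornified envelope gene also induced by injury, rose to 156 and 148 CPM, against 4.96 and 8.79 CPM (log2 fold change 4.49, edgeR adjusted p = 0.000238). Without control library 1 or 2 the list had 4 and 6 genes called higher. The squamous markers used for naming clusters, which include Krt5, Krt13 and Krt4, summed to 50.5 and 143 CPM after deletion and to 14.96 and 17.9 CPM in controls, and no cluster took that name.

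Of 17 tested intestinal identity factors, 8 fell and 1 rose, beside 15.5% called lower and 15.3% higher among all genes tested. The list's median was -1.25. Cdx1, a homeobox factor of the intestine, fell to 7.18 and 6.01 CPM after Lats deletion, against 94.9 and 106 CPM in controls (log2 fold change -3.93, SE 0.248, edgeR adjusted p = 0.000202). Creb3l3 (-4.56, edgeR adjusted p = 0.000461), Hnf4g (-2.97, edgeR adjusted p = 0.00162) and Maf (-4.22, edgeR adjusted p = 0.00196), all used by enterocytes, fell as well, in both Lats-deleted libraries against both controls, in libraries with far fewer enterocyte-like cells. Cdx2, which sets intestinal against gastric identity and was picked after its values were seen, had a log2 fold change of -0.21 (edgeR adjusted p = 0.732). Its levels were 95.9 and 39.0 CPM in Lats-deleted libraries 1 and 2, against 76.5 and 79.1 CPM in controls. Library 1 thus lay above both controls and library 2 below both.

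Crypt and Wnt response genes, the setting of Sox4 and Sox9, split: 5 of 17 rose and 5 fell. Among all genes tested 15.3% were called higher and 15.5% lower. The list's median was -0.06 and turned to 0.19 with plain library totals. Without control library 1, 3 rose and 2 fell. Ccnd1, cyclin D1, rose to 977 and 865 CPM after Lats deletion, against 54.5 and 62.4 CPM in controls (log2 fold change 3.98, edgeR adjusted p = 0.000202). Cd44 rose by 2.82 (edgeR adjusted p = 0.000411) and Prom1 by 2.59 (edgeR adjusted p = 0.00205) on the log2 scale, and the Wnt target Sp5 fell by 2.67 (edgeR adjusted p = 0.00148), each in both libraries. The Prom1 call was lost without control library 1, at 0.0553.

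The median of the stomach genes rested on Lats-deleted library 2: the median log2 fold change was 4.95, and 0.31 without that library. Of 9 tested, 2 rose and 1 fell, beside 30.8% called in either direction among all genes tested. The number called higher was 8 without Lats-deleted library 1, 1 without either control library, 7 with no filter on low counts and 5 with DESeq2. Psca, a cell surface antigen of stomach and other epithelia, rose in both libraries to 765 and 883 CPM, against 16.3 and 34.3 CPM in controls (log2 fold change 5.04, SE 0.395, edgeR adjusted p = 0.000331). Anxa10 was at 57.0 and 391.9 against 7.79 and 5.27 CPM (log2 fold change 5.08, edgeR adjusted p = 0.0108, up to 0.114 without a control library). Capn8 fell by 1.73 on the log2 scale (edgeR adjusted p = 0.0249), a call lost with DESeq2 and without any 1 of the 4 libraries, with adjusted p of up to 0.205. Tff1, the pit cell peptide, was at 1.03 and 5999 CPM after Lats deletion and at 0.708 and 4.39 CPM in controls (edgeR adjusted p = 0.0571), and was high in Lats-deleted library 2 alone, as Sox2 was.

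**Figure D5:**
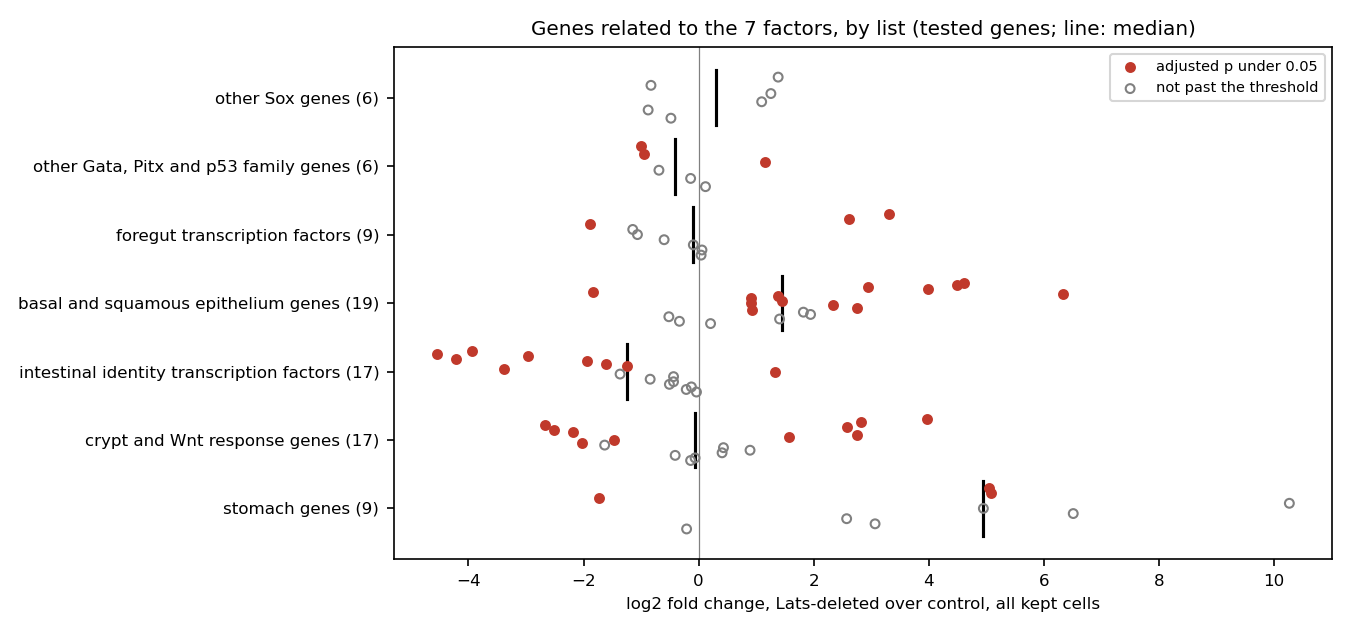
Log2 fold changes (horizontal axis, Lats-deleted over control, all kept cells) of the tested genes of 7 related lists, with the number tested in brackets, filled where the edgeR adjusted p was under 0.05, and a line at each list's median. Basal and squamous genes lie mostly right of 0 with a median of 1.45 and intestinal identity factors mostly left with a median of -1.25.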

How the data were processed

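Values are counts per gene and cell barcode for 4 libraries, deposited by the authors as raw tables with 25289 gene columns. The submitters' processing notes name the build mm10, RSEM 1.3.0, SAMtools 1.3.1 and Bowtie 1.1.1.1, without their roles. Whether a count is a molecule or a read is not given in the sources used here, so counting intervals and floors (3 counts) cover counting error only.

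The 7 genes and the related lists were chosen with earlier results of these data known. Kept barcodes had 1000 or more counts, 300 or more genes and no more than 30% mitochondrial counts. Doublets were neither called nor removed. Cells were clustered with scanpy 1.11.5 (2000 variable genes without the 7 genes, 30 principal components, 15 neighbours, Leiden resolution 1) and clusters named from marker lists. Counts were summed per library, and per library over progenitor-like cells, and tested with edgeR 4.0.16 (TMM, quasi-likelihood, Benjamini-Hochberg adjustment over all genes, 0.05), a procedure also tested on simulated data. Levels of single genes by library are TMM-scaled CPM, except for Xist. Plain totals were used for Xist, sums over marker lists, levels by cluster or class, the split by Cldn18 and the barcodes left out by the filters. Labels do not say that the libraries are separate animals, and p-values then reflect only how far these libraries spread, which may be technical.

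From each list up to 4 genes of smallest p were named, and for each of the 7 genes with at least 200 counts the 5 genes of highest correlation. A gene that this rule names is not reported here. Alternatives were DESeq2 1.42.0, plain totals, no filter on low counts, a replicate block, each library left out, minima of 500 and 2000 counts, a maximum of 15% mitochondrial counts, stromal-like or gastric-like clusters left out, and resolution 2. Leaving out cells with a count of Cldn18 was chosen after seeing the data. Gene positions are from GENCODE M21.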

Additional observations from a re-analysis of the deposited data

Results flagged for a closer look

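In barcodes that the cell filters left out, which no comparison above used, 5 of the 7 genes had higher levels in both Lats-deleted libraries than in both control libraries. These barcodes come from the same libraries, and the 7 genes were picked on this contrast. The share of all genes with this order was not computed, so nothing is read from that count. Sox4 was at 202 and 413 CPM in these barcodes of the Lats-deleted libraries, against 18.9 and 19.6 CPM in the control libraries. Sox9 was at 49.6 and 79.0 CPM, against 33.9 and 32.4 CPM. Sox21 was at 6.84 and 36.0 CPM, against 0 and 1.96 CPM. Gata3 was at 13.7 and 12.5 CPM, against 3.15 and 0.982 CPM. Pitx1 was at 7.70 and 35.4 CPM, against 1.58 and 1.96 CPM. These barcodes hold few counts each, and the share of free RNA among them was not tested.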

How the results depend on the processing

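In the comparison of all kept cells edgeR called 3869 of 12561 genes, 1923 higher and 1946 lower. With plain library totals it called 2772 higher and 1575 lower, or 63.8% higher against 49.7%, and the median log2 fold change of all genes was 0.30 against 0.05. Leaving out 1 library gave 1228 to 5387 calls, and in progenitor-like cells 412 to 1011 against 896; the lowest counts came without control library 1 in all kept cells and without control library 2 in progenitor-like cells, and the highest without Lats-deleted library 1 and without Lats-deleted library 2. DESeq2 called 472 genes in progenitor-like cells; the cause was not tested. No log2 fold change of the 6 fitted genes changed sign over 14 alternatives: Sox4 ranged from 2.96 to 3.43, Sox9 from 0.18 to 1.15, Sox21 from 3.22 to 5.28, Gata3 from 2.21 to 4.50, Pitx1 from 1.36 to 2.68 and Trp63 from -0.76 to -0.25. The difference of replicate 1 minus 2 in the Lats-deleted and in the control libraries correlated over 12561 genes at r = 0.0447. With a single difference per group, this cannot show whether the replicate numbers pair the libraries. A replicate block gave 4162 calls in all kept cells and 694 in progenitor-like cells, where Sox4 lost its call. Depth limits Sox2, Sox21 and Gata3 most, with 3, 3 and 4 counts in the control libraries together.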
